A study of Homo sapiens with 6 samples.

Results

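The cytosolic ribosomal protein genes were followed in KYSE450 cells, a human esophageal squamous cell carcinoma line, and in KEAP1null-KYSE450 cells, which lack the NRF2 inhibitor KEAP1. Members were chosen by symbol alone: RPL or RPS followed by a number, with or without a final A, X or L, and RPLP0, RPLP1, RPLP2 and RPSA. This gave 81 of the 58884 genes in the deposited table, of which 49 encode large-subunit and 32 small-subunit proteins. RNA was sequenced from 3 libraries of each line, and both lines were grown in the same medium without treatment. KEAP1null-KYSE450 is a single clone made by gene editing, so any other difference of that clone from its parent cannot be told apart from the loss of KEAP1. The labels do not say whether the libraries of a line came from separate cultures, and p-values then measure only the spread between these libraries.

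Ribosomal proteins assemble with ribosomal RNA in the nucleolus into a small subunit, which reads the mRNA, and a large subunit, which joins amino acids. Because each ribosome needs each core protein once, apart from the acidic stalk proteins, cells make them in matched amounts. Their mRNAs share a start with a cytosine followed by a run of pyrimidines, called a 5′ terminal oligopyrimidine tract, through which the mTOR pathway controls their translation.

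The values are normalized counts, that is, the reads of a gene divided by a scaling factor of its library. Between 53027359 and 61543442 reads per library fell on genes, so that 3 reads correspond to 2.77 to 3.21 normalized counts. A level in such bulk RNA is relative to the other genes, and fewer cells expressing a gene cannot be told apart from less of its RNA per cell. The edited gene gave 5760.4, 5226 and 5146 normalized counts for KEAP1 in KYSE450 libraries 1 to 3, numbered here by their order in the table. The KEAP1null-KYSE450 libraries held 5737, 4906 and 5317. These ranges overlapped, and a count per gene does not show an edit. All 6 listed NRF2 target genes, among them NQO1, GCLC and GCLM, were higher in KEAP1null-KYSE450, by log2 fold changes of 1.85 to 3.98. Of 8 listed epithelial markers, all were detected in every library, 2 were higher and 5 lower. The higher ones were KRT5 and KRT8, with log2 fold changes of 1.46 and 0.81. Among the lower ones was KRT14 with -6.09. Summed normalized counts lay between 0 and 15.2 for 4 leukocyte markers and between 41.5 and 73.8 for 3 endothelial markers. Those of 5 fibroblast markers, nearly all from COL1A1, lay between 608 and 847 in KYSE450 and between 349 and 436 in KEAP1null-KYSE450.

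The start sites of the members with the most distinct levels show the shared tract and its absence. RefSeq start sites of the GRCh38.p14 assembly were found for 64 of the 81 members, with 79 windows in all. A cytosine at the annotated start followed by at least 4 pyrimidines stood in 46 of the 79 windows (58.2%), each of a different gene, against 4.07% of all 35116 windows in the same table. Of the windows below, the first 6 belong to genes that were higher in KEAP1null-KYSE450 and the last 3 to genes that were lower. Each holds 10 bases before and 20 bases from the annotated start, and capitals mark the pyrimidine tract from the start where one of that length was present.
RPS12: cggatgaggcCTCTTTCCCTgccgccgccg
RPL13A: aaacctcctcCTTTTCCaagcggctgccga
RPL22: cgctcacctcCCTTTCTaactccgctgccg
RPL35A: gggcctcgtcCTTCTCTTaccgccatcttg
RPS29: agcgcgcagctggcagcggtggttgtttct
RPS27L: gatgccgagcgcagatcgcttgcagcttgc
RPLP2: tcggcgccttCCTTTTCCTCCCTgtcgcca
RPS27: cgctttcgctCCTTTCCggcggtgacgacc
RPS26: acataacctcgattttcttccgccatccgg

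These windows lie at chr6:132814559-132814588 (plus strand) for RPS12, chr19:49487598-49487627 (plus) for RPL13A and chr1:6199576-6199605 (minus) for RPL22. Those of RPL35A, RPS29 and RPS27L are at chr3:197950180-197950209 (plus), chr14:49598691-49598720 (minus) and chr15:63157458-63157487 (minus). The windows of RPLP2, RPS27 and RPS26 are at chr11:809957-809986, chr1:153990752-153990781 and chr12:56041908-56041937, all on the plus strand. The tract ran over 13 bases in RPLP2, 10 in RPS12, 8 in RPL35A and 7 in RPL13A, RPL22 and RPS27. RPS29, RPS27L and RPS26 had no such tract at their annotated start, which says nothing of other starts of these genes. Among matched members, 7 of 10 that were higher, 2 of 3 that were lower and 37 of 50 that were not called had the tract, so it was present on both sides of the comparison.

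From 250 bases before each start to 50 after it, read on both strands, the letters CCGGAAG, a core bound by ETS-family factors, stood in 34.2% of the member windows and 10.3% of all windows. CTCTTTC stood in 25.3% against 7.67%, CTTTTC in 31.6% against 21.0%, and AAGATGGC, a core bound by YY1, in 7.59% against 2.89%. CTCTTTC and CTTTTC can overlap the tract. TGACNNNGC, the core of the antioxidant response element bound by NRF2, stood in 15.2% of the member windows, close to the 13.3% of all windows. A match is a description of letters and not a site.

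Messenger RNA of nearly all members was abundant. Of the 81 genes, 75 had a mean of at least 1000 normalized counts, and 79 reached the mean of 10 required for testing. Per kilobase of main transcript in KYSE450, the core members with the highest levels were RPL12 (210505 normalized counts per kilobase), a protein at the base of the stalk, and RPS18 (283671), a protein of the small-subunit head. With the length of all merged exons, 2 genes of the large subunit lay above RPL12 and 3 of the small subunit above RPS18. The lowest were RPL36A (162) and RPS10 (180), a protein that is ubiquitinated when ribosomes collide. These low values go with how the genes overlap others: 84.0% of the main transcript of RPS10 and 43.8% of that of RPL36A lie under exons of readthrough genes on the same strand, RPS10-NUDT3 and RPL36A-HNRNPH2, as do 96.9% of RPL17 under RPL17-C18orf32. Reads that fall on overlapping genes are often left uncounted, so levels of these genes are uncertain. Of the tissue-restricted paralogs, RPL10L, known from testis, was at 0 in all 6 libraries. RPL3L, known from muscle, gave 9.63, 4.04 and 0 normalized counts in KYSE450 and 0, 5.10 and 0 in KEAP1null-KYSE450, too low to test. RPL39L, another paralog known from testis, was expressed in both lines, between 1549 and 2244.

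The first question was whether loss of KEAP1 went with a change of the ribosomal protein mRNAs. Most moved little. Of the 79 tested members, 12 were higher in KEAP1null-KYSE450 at an adjusted p under 0.05, where 24.3% of all 16701 genes tested were higher, and 3 were lower, where 25.5% of all genes were lower. These counts are 15.2% and 3.80% of the members, both below the share among all genes. For higher members this depended on the libraries used: without the first library of both lines it was 43.0% against 25.7%. Calls come from limma on log2 of the normalized count plus 1, with Benjamini-Hochberg adjustment over all genes. 0 members also passed a log2 fold change of 1, whereas 18.2% of all genes did. With edgeR and DESeq2 on whole reads, from 4 or from all 6 libraries, 0 did so as well. An unadjusted p under 0.05 was found with limma for 19 of the 79 members and for 9352 of all 16701 genes tested. Of the 79, 73 (92.4%) lay within a log2 fold change of 0.5 in either direction, against 56.1% of all genes.

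Small positive differences were common. The log2 fold change was above 0 for 61 members and below 0 for 18, with a median of 0.16 beside 0.0041 over all genes tested. The values ran from -0.73 for RPS10, which was not called (adjusted p = 0.057), to 0.77 for RPS27L. The 3 libraries of KEAP1null-KYSE450 all lay above the 3 of KYSE450 for 8 members and all below for 3. Among all genes tested these shares were 28.4% and 29.3%. The ranked plot shows how both subunits spread around a median just above 0.

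**Figure D1:**
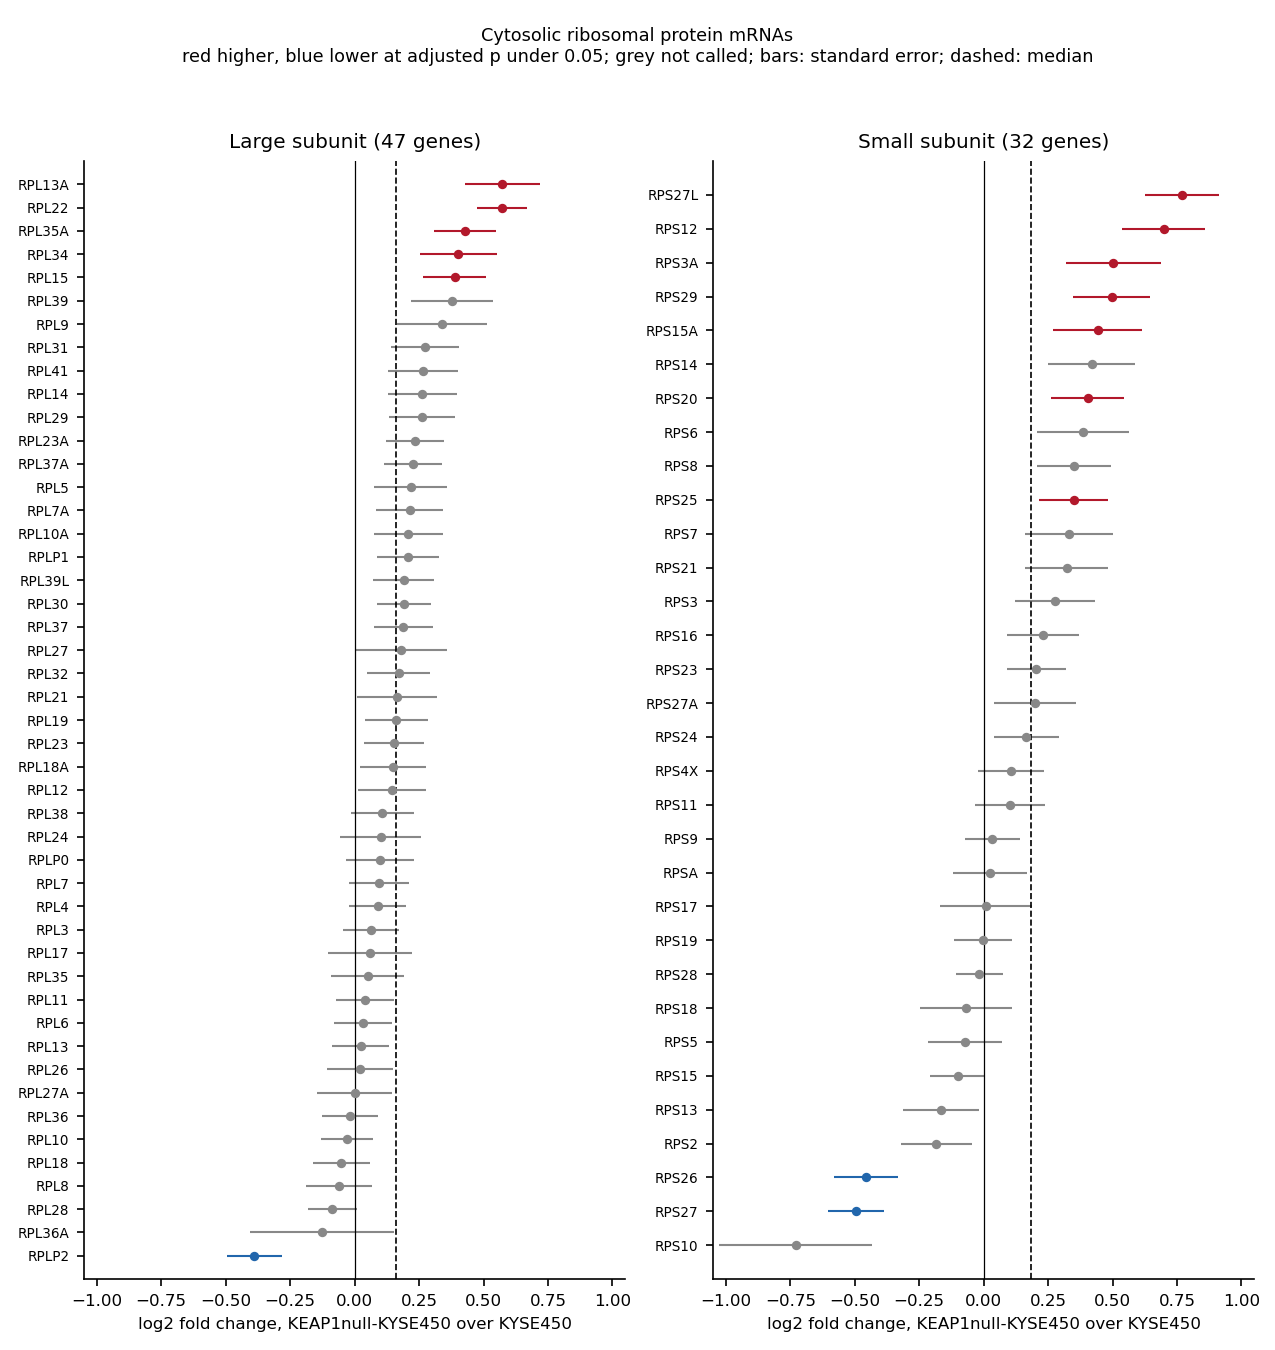
log2 fold change (x axis) of each tested ribosomal protein gene (y axis), 47 of the large and 32 of the small subunit, with standard error bars; red marks the 12 higher, blue the 3 lower, grey those not called, and the dashed line the median of the subunit. Most genes sit between 0 and 0.5, with RPLP2, RPS26, RPS27 and RPS10 apart on the low side.

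Both subunits had similar medians. The median log2 fold change was 0.16 over 47 large-subunit genes and 0.18 over 32 small-subunit genes. Of the large-subunit genes, 5 were higher and 1 lower, and of the small-subunit genes, 7 were higher and 2 lower, beside 24.3% higher and 25.5% lower among all genes tested. The small subunit held the wider spread, from -0.73 to 0.77 against -0.39 to 0.57, and 87.5% of its genes lay within 0.5 against 95.7%. Together the members took 7.73%, 9.41% and 9.71% of all normalized counts in KYSE450 and 8.85%, 11.01% and 10.9% in KEAP1null-KYSE450. The means were 8.95% ± 1.07 and 10.3% ± 1.23 (SD, n = 3), and the lowest KEAP1null-KYSE450 library lay within the range of KYSE450. The ratio of large-subunit to small-subunit counts was 1.49, 1.38 and 1.35 in KYSE450 and 1.45, 1.337 and 1.338 in KEAP1null-KYSE450, with overlapping ranges. Mitochondrially encoded transcripts took 2.31% ± 0.447 of all counts in KYSE450 and 4.33% ± 0.371 in KEAP1null-KYSE450, and the 100 highest other genes 18.3% and 23.3%.

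The spread between libraries of one line was itself shared by nearly all members. Library 1 was the lowest of the 3 KYSE450 libraries for 76 of 78 members with a mean of at least 100, and the lowest of the KEAP1null-KYSE450 libraries for 75 of 78. Among other genes of that level, library 1 was the lowest for 35.9% and 30.9%. The median deviation of a member from its mean in KYSE450 was -0.22, 0.058 and 0.16 on the log2 scale for libraries 1 to 3. In KEAP1null-KYSE450 it was -0.19, 0.094 and 0.10. Over 75 members the median coefficient of variation was 12.9% in KYSE450 and 11.1% in KEAP1null-KYSE450, against 9.06% and 7.37% for other genes with a mean of at least 1000. Once each library was scaled by the members' own median level, it fell to 4.70% and 3.55%. A fall follows in part from the scaling, whose factors came from these same 75 members, and the other genes were not rescaled.

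**Figure D2:**
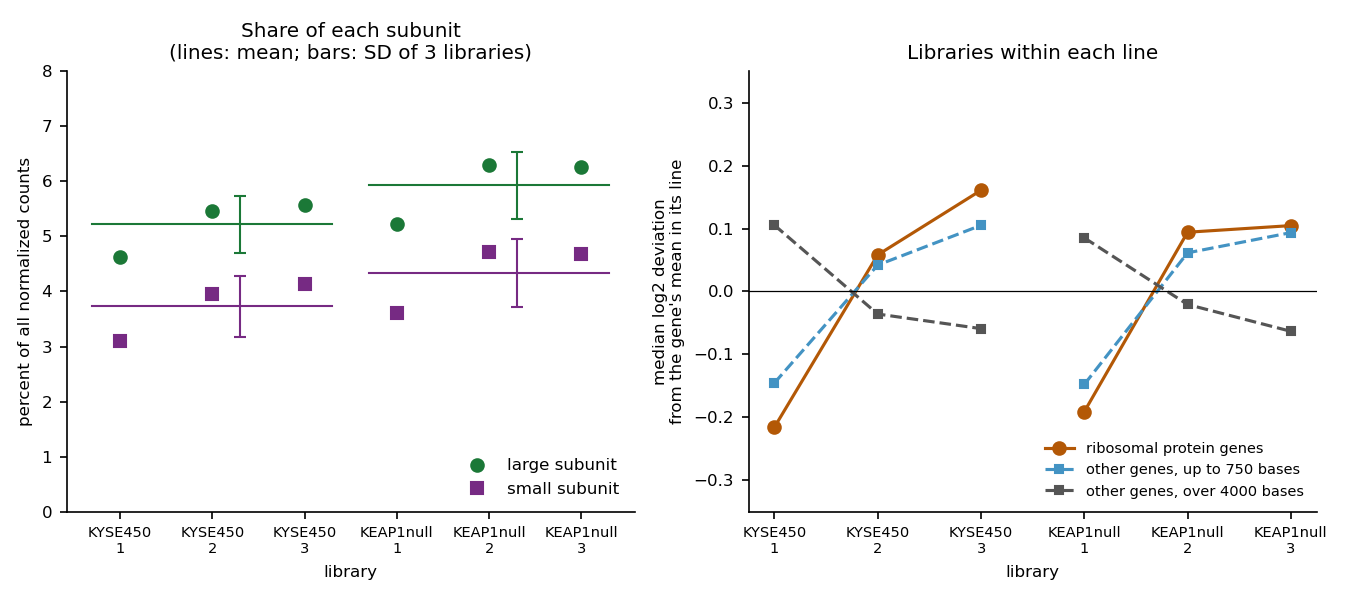
Left, percent of all normalized counts (y axis) in large-subunit and small-subunit genes for each of the 6 libraries (x axis), with the mean and SD of each line; right, median log2 deviation (y axis) from the gene's mean in its line, for ribosomal protein genes and for other genes with short or long main transcripts. Library 1 is low for ribosomal protein genes and for short transcripts in both lines (-0.22 and -0.15 in KYSE450), and high for transcripts over 4000 bases (0.11 in KYSE450).

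The same order of libraries appeared in other short transcripts. Members have a median main-transcript length of 785 bases against 3278 for other genes with a mean of at least 100. For 499 other genes of up to 750 bases, the median deviations were -0.15, 0.042 and 0.11 in KYSE450 and -0.15, 0.061 and 0.094 in KEAP1null-KYSE450. For 4786 genes over 4000 bases, library 1 was instead high, by 0.11 and 0.085. What set this order was not tested. Transcript length went with the difference between the lines too: the median log2 fold change of other genes was 0.27 up to 750 bases, 0.014 from there up to 1500, and -0.098, -0.12 and -0.12 in the longer classes. Members of the same classes had medians of 0.16 (36 genes), 0.11 (25), 0.28 (9), 0.18 (4) and 0.19 (5), the last 2 of which rest on few genes. These classes use the transcript that the annotation marks as the main one, and which transcript these cells express was not tested. The 5 members over 4000 bases, among them RPL37 (7573) and RPL14 (7136), were lowest in library 1 of each line. In this they resembled short transcripts. With the trend on length and GC content removed from each library, 8 members were higher and 16 lower, where 27.2% and 28.0% of all genes were, and the medians were -0.034 for large-subunit and -0.041 for small-subunit genes. The small positive median of the members therefore depended on this step.

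**Figure D3:**
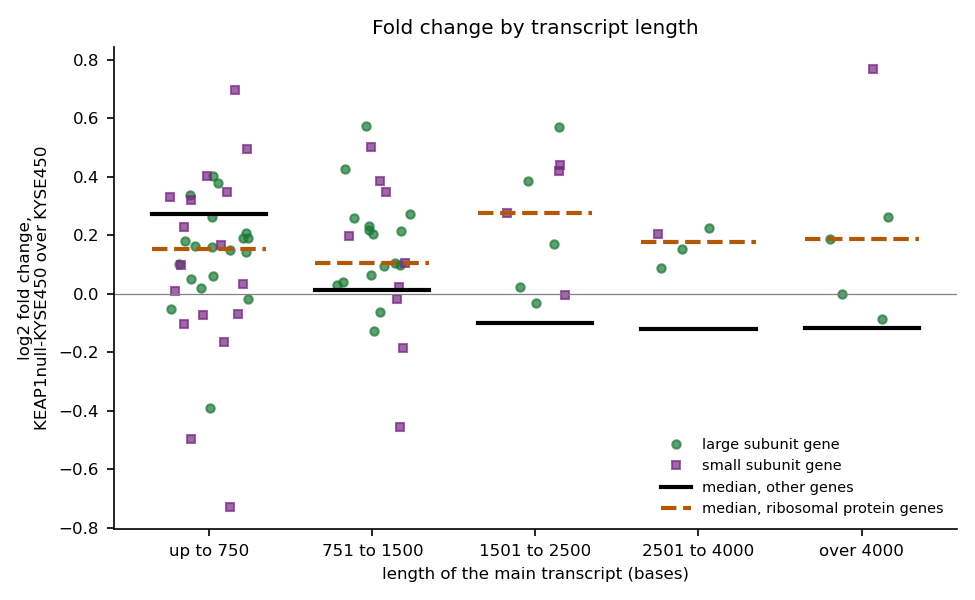
log2 fold change (y axis) of each tested ribosomal protein gene by class of main-transcript length in bases (x axis), with the median of the members (dashed) and of other genes (black) in each class. Medians of other genes go from 0.27 in the shortest class to -0.12 in the longest, while those of the members stay between 0.11 and 0.28. Classes use the annotated main transcript, which may not be the one expressed.

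The other question was which members left the common level. A subset of 7 genes was called each time 1 library was left out: RPS12, RPL13A, RPL22 and RPS27L as higher and RPLP2, RPS27 and RPS26 as lower. In each of those fits 18.9% to 24.1% of all genes were higher and 19.6% to 25.4% lower. The share of all genes called in all 6 fits was not counted, so the subset is not set against it. With DESeq2 or edgeR on the reads of all 6 libraries, alternatives added after the data were seen, all 15 members of the main test were called. DESeq2 then called 17 higher, where 25% of all genes were, and 4 lower, where 25.7% were, and edgeR 15 higher (25.3%) and 3 lower (24.0%). The subset of 7 were also the members called by DESeq2 on the reads of 4 libraries, where 15.7% of all genes were higher and 16.4% lower. With edgeR on those reads 17.5% of all genes were higher and 14.9% lower, RPS12, RPL22 and RPS27L were called, and the adjusted p of the other 4 lay between 0.059 and 0.13. Of the other 8 called members, RPL35A was called in 5 of the 6 fits, RPS29 in 4, RPL15 in 3, and RPL34, RPS3A, RPS15A, RPS20 and RPS25 in 2.

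RPS12, a protein of the beak of the small subunit, had 52366, 68289 and 76561 normalized counts in KYSE450 and 85521, 116565 and 117292 in KEAP1null-KYSE450. All KEAP1null-KYSE450 libraries were above all KYSE450 libraries. It rose by 0.70 ± 0.16 on the log2 scale (fold change ± standard error, adjusted p = 0.0032), and it stayed called, at adjusted p up to 0.040, in all 21 alternative settings. Within the members it rose from 1.29% ± 0.0902 to 1.86% ± 0.109 of their summed counts (SD, n = 3). Only 0.282% of the 150-base windows of its transcript occur in another gene.

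RPL13A, which leaves the ribosome in interferon-treated macrophages to silence certain mRNAs, had 95342, 117884 and 119480 normalized counts in KYSE450 and 137067, 177155 and 182045 in KEAP1null-KYSE450. The ranges did not overlap. It rose by 0.57 ± 0.15 on the log2 scale (adjusted p = 0.0058) and from 2.19% ± 0.0482 to 2.90% ± 0.103 of the members' counts. Of its 150-base windows, 19.4% occur in another gene, chiefly processed pseudogenes, and reads of these shared stretches cannot be separated here. The row of the pseudogene RPL13AP5 was also higher (log2 fold change 0.58, adjusted p = 0.012). It held 779 to 1113 normalized counts in KYSE450 and 1117 to 1682 in KEAP1null-KYSE450.

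RPL22, a protein near the exit of the peptide tunnel, had 3738, 3312 and 3178 normalized counts in KYSE450 and 5242, 4767 and 5160.3 in KEAP1null-KYSE450. Unlike most members, it was highest in library 1 of each line. It rose by 0.57 ± 0.097 on the log2 scale (adjusted p = 0.00039). Its paralog RPL22L1 had 1652, 2140 and 2841 against 2279, 3264 and 3025, with a log2 fold change of 0.39 that was not called (adjusted p = 0.089). RPL22 lost its call once scaled by the members' own level (log2 fold change 0.40, adjusted p = 0.12).

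RPS27L, a paralog of RPS27 known as a target of p53, had 989, 1072 and 1244 normalized counts in KYSE450 and 1503, 2042 and 2132 in KEAP1null-KYSE450. These groups did not overlap, and the level rose by 0.77 ± 0.14 on the log2 scale (adjusted p = 0.00072). RPS27 itself, a protein on the solvent side of the small subunit, went the other way. Its values were 33680.1, 36912 and 39660.4 in KYSE450 and 23252, 27728 and 27313 in KEAP1null-KYSE450, again without overlap. It fell by 0.50 on the log2 scale (standard error 0.11, adjusted p = 0.0022). RPS27 shares 42.4% of its 150-base windows with pseudogenes, whereas RPS27L shares none.

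RPS27L counts were 2.94%, 2.91% and 3.14% of RPS27 counts in KYSE450 and 6.46%, 7.36% and 7.80% in KEAP1null-KYSE450. The log2 ratio differed by 1.27 between the lines, with SDs of 0.060 and 0.14 (n = 3). An exact two-sided permutation test gave p = 0.1, the smallest that 3 against 3 libraries allow, and 0.25 adjusted over 5 paralog pairs. The ratio of RPL26L1 to RPL26 was higher by 0.18 (exact permutation p = 0.1, adjusted 0.25). Of the main transcript of RPL26, 65.3% lies under exons of another gene on the same strand. Its level, like that of RPL36A, is therefore uncertain in these ratios. For RPL22L1 to RPL22, RPL39L to RPL39 and RPL36AL to RPL36A the differences were -0.18, -0.19 and -0.027 with overlapping ranges.

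RPLP2 forms with RPLP1 the acidic dimers that hang on RPLP0 as the stalk and bind translation factors. It had 59701.5, 62932 and 64386 normalized counts in KYSE450 and 43201.5, 49189 and 50681 in KEAP1null-KYSE450, all lower. It fell by 0.39 on the log2 scale (standard error 0.11, adjusted p = 0.0085), and from 1.24% ± 0.109 to 0.841% ± 0.0328 of the members' counts. The other stalk genes were not called. RPLP0 had a log2 fold change of 0.097 (adjusted p = 0.56), RPLP1 of 0.21 (0.17) and RPL12, at the stalk base, of 0.14 (0.38).

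RPS26, which lies at the exit of the mRNA channel and is mutated in Diamond-Blackfan anaemia, had 14821, 17571 and 20845 normalized counts in KYSE450 and 11668, 13082 and 13793 in KEAP1null-KYSE450. The groups did not overlap, and the level fell by 0.46 on the log2 scale (standard error 0.12, adjusted p = 0.0085). Of its 150-base windows, 21.3% occur in pseudogenes.

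**Figure D4:**
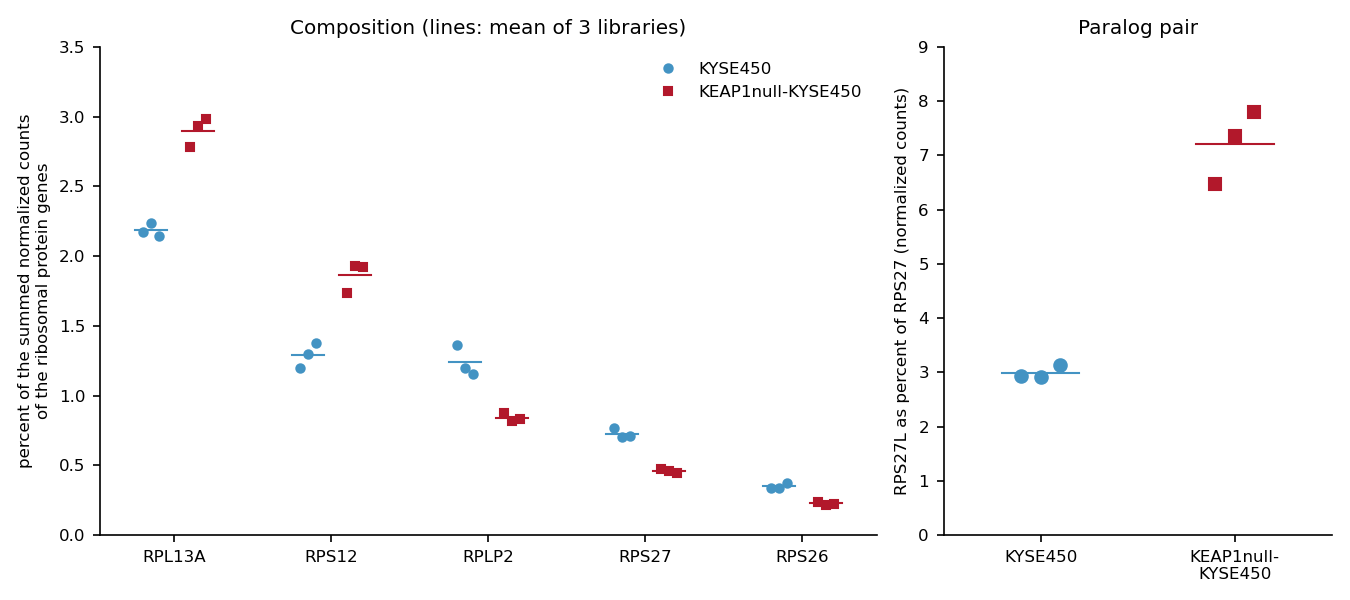
Left, percent of the summed normalized counts of all ribosomal protein genes (y axis) taken by 5 of them (x axis) in each library, with the mean of each line; right, RPS27L counts as percent of RPS27 counts (y axis) in each line (x axis). The 3 libraries of KEAP1null-KYSE450 lie above those of KYSE450 for RPL13A and RPS12, below them for RPLP2, RPS27 and RPS26, and between 6.46% and 7.80% against 2.91% to 3.14% for the pair.

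Scaling each library by the members' own level, an alternative added after the data were seen, asks which genes differ from the rest of the ribosome. It moved the median log2 fold change of all genes to -0.17. 3 members were then higher (RPS12, RPL13A and RPS27L), where 13.6% of all genes were, and 6 were lower (RPLP2, RPS27, RPS26, RPS13, RPS2 and RPS10), where 21.7% were. With each library left out in turn under this scaling, RPS12, RPL13A, RPLP2, RPS27 and RPS26 kept their calls in all 6 fits. RPS27L kept its call in 3 of the 6, RPS13 and RPS2 in 2 and RPS10 in 1. In each of these fits 8.32% to 15.4% of all genes were higher and 9.82% to 29.0% lower. On this scale the log2 fold changes of RPS12 and RPL13A were 0.53 and 0.40, and those of RPLP2, RPS27 and RPS26 were -0.56, -0.67 and -0.63.

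The remaining called members were RPL35A, RPL34 and RPL15 of the large subunit and RPS3A, RPS29, RPS15A, RPS20 and RPS25 of the small subunit, the last 2 named after their values were seen. RPL35A, mutated in Diamond-Blackfan anaemia like RPL15, RPS29 and RPS15A, had 29623.5, 35861.5 and 38513 normalized counts in KYSE450 and 41827.5, 48608 and 49044 in KEAP1null-KYSE450, without overlap. It rose by 0.43 ± 0.12 on the log2 scale (adjusted p = 0.010). RPL15 had 0.39 (adjusted p = 0.018), also without overlap. The others had log2 fold changes of 0.50 (RPS3A), 0.50 (RPS29), 0.44 (RPS15A), 0.40 (RPS20), 0.40 (RPL34) and 0.35 (RPS25), and in each of them library 1 of KEAP1null-KYSE450 lay within the range of KYSE450. With the trend on length and GC content removed, RPL34 and RPS25 turned to -0.035 and -0.063, RPS29 and RPS20 had 0.0087 and 0.018, and RPS3A had 0.18, none of them then called. The other 10 called members kept their calls and directions under that removal. It uses the annotated main transcript, which is 295 to 869 bases long in the members that lost their calls. In the higher members that kept them it is 1127 to 6110 bases long, apart from RPS12 (503). In the lower members it is 352 to 1140. Whether other transcript lengths would change these calls was not tested. Calls were lost, with adjusted p between 0.052 and 0.18, without library 1 of KYSE450 (6 of the 15 called), library 2 of KYSE450 (5), library 2 of KEAP1null-KYSE450 (7) or library 3 of KEAP1null-KYSE450 (8). The position in the table pairs no libraries. Leaving out library 1 of both lines was an alternative added after the data were seen, and took out the library lowest for nearly all members. Then 34 members (43.0%) were higher, where 25.7% of all genes were, and 4 (5.06%) lower, where 28.2% were.

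Several other members known for roles in signalling or disease were not called. RPS6, the S6 kinase substrate, had 197134, 262457 and 288042 normalized counts in KYSE450 and 260869, 357565 and 356821 in KEAP1null-KYSE450, with 1 library inside the range of the other line. The log2 difference was 0.39 ± 0.18 (adjusted p = 0.090). RPS6 was called as higher in 5 of 21 alternative settings, at an adjusted p down to 0.0036. Among these were the fits without library 3 of KYSE450 (adjusted p = 0.040), without library 1 of KEAP1null-KYSE450 (0.021) and, on the reads of all 6 libraries, with edgeR (0.048) and DESeq2 (0.030). RPL5 and RPL11, which bind MDM2 together with an RNA of the large subunit, had 0.22 (adjusted p = 0.22) and 0.041 (0.79). RPS19, the gene most often mutated in Diamond-Blackfan anaemia, had -0.0029 (adjusted p = 0.98), RPSA, also known as the laminin receptor, 0.025 (0.90), and RPS27A, made as a fusion with ubiquitin, 0.20 (0.32). Among 19 genes mutated in that disease 4 were higher and 2 lower, beside 24.3% and 25.5% of all genes, with a median of 0.050. Of 9 genes lining the peptide exit tunnel, RPL22 alone was higher, and of 7 at the mRNA channel, RPS26 alone was lower.

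Some members lie among genes that differed in one direction. The median log2 fold change of the 40 nearest tested genes was -0.56 around RPS27 on chromosome 1 (153990762 to 153992155 in hg38), beyond the value of RPS27 itself. It was -0.46 around RPS10 (chromosome 6, 34417454 to 34426069) and -0.45 around RPS18 (chromosome 6, 33272075 to 33276511). RPS18 itself had a log2 fold change of -0.070 (adjusted p = 0.77). Around RPS3, a protein at the mRNA entry (chromosome 11, 75399515 to 75422280), it was 0.40, and RPS3 had 0.28 (adjusted p = 0.16). Around RPL13A, RPS12, RPL22, RPS27L and RPS26 the medians were -0.20, 0.16, -0.049, -0.00065 and -0.059, away from the values of those genes. Around RPLP2 it was -0.28. For other called members, the medians were 0.36 around RPL15 and 0.35 around RPL34, near the values of those genes (0.39 and 0.40). Around RPS29, which had 0.50, the median was 0.35. It was 0.099, 0.14, 0.16 and -0.11 around RPS3A, RPS15A, RPS20 and RPS25, away from their values. For RPL35A no such median was available. Copy number was not measured, and its part was not tested.

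Ribosomal protein pseudogenes, copies that can take reads from their parents, were counted in rows of their own. Of 1132 pseudogene rows 421 were above 0 in at least 1 library and 112 were tested, of which 11 were higher and 2 lower, beside 24.3% and 25.5% of all genes, with a median log2 fold change of 0.14. Their counts summed to 0.812% ± 0.0246 of the members' sum in KYSE450 and 0.765% ± 0.0185 in KEAP1null-KYSE450. For 43 members no 150-base stretch of the main transcript occurs in another annotated transcript, and for 6 more than 50% of them do.

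Most genes that build ribosomes were lower. Of 41 ribosome biogenesis factors, which process ribosomal RNA and assemble the subunits, 27 were lower in KEAP1null-KYSE450 and 1 was higher, beside 25.5% and 24.3% of all genes, with a median log2 fold change of -0.39. BOP1, needed to process the RNAs of the large subunit, had 6459, 5184 and 5614 normalized counts in KYSE450 and 3341, 2544 and 3222 in KEAP1null-KYSE450. It fell by 0.93 on the log2 scale (adjusted p = 5.4e-05). BYSL and TSR1, which mature the small subunit, fell by 0.88 and 0.82 (adjusted p = 1.7e-05 and 2.1e-05). RRN3, which brings RNA polymerase I to ribosomal DNA, was higher by 0.23 (adjusted p = 0.0497). With the trend on length and GC content removed 34 of the 41 were lower (28.0% of all genes) and 1 higher, with a median of -0.39, so unlike the median of the ribosomal proteins this one did not move. With scaling to the same total 27 of them were lower, where 23.4% of all genes were, and to the total of other nuclear genes 24 (20.9%). By quantiles 21 were lower (23.5%) and by the members' own level 29 (21.7%).

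Of 7 dedicated chaperones of ribosomal proteins, 4 were lower and 0 higher, beside 25.5% and 24.3% of all genes: PDCD2L by 0.65, GRWD1, which escorts RPL3, by 0.65, HEATR3, which helps import RPL5, by 0.50 and RPS19BP1 by 0.42, all as log2 fold changes below 0. TSR2, which escorts RPS26, had 2678, 1948 and 2107 normalized counts in KYSE450 and 2271, 1967 and 1929.9 in KEAP1null-KYSE450, with overlapping ranges and an adjusted p of 0.47. TSR2 was named after its values were seen, for its link to RPS26.

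**Figure D5:**
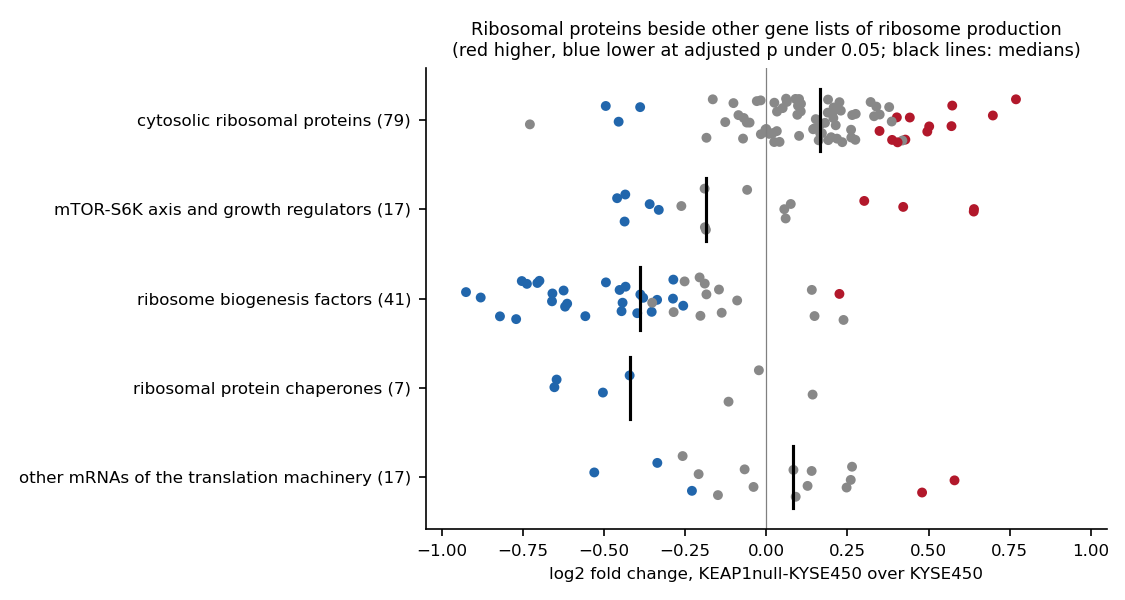
log2 fold change (x axis) of each tested gene in 5 lists (y axis, with the number tested), red for higher, blue for lower and grey for not called, with the median of each list as a black line. The medians of ribosome biogenesis factors (-0.39) and chaperones (-0.42) lie below 0, and that of the ribosomal proteins (0.16) above it.

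Other components of translation were mixed. Of 17 tested mRNAs of the translation machinery, which carry the same kind of start or work beside the ribosome, 2 were higher and 3 lower, beside 24.3% and 25.5% of all genes, with a median of 0.083. TPT1 was higher by 0.58 (adjusted p = 0.013) and EIF4A2, a helicase of initiation, by 0.48 (0.0058), while EIF3A fell by 0.53 (0.0061), EEF1D by 0.34 (0.0081) and EIF3F by 0.23 (0.045). EEF1G was listed at 0 in all libraries although cells in general express it. Among ribosomal proteins outside the symbol rule, FAU had a log2 fold change of 0.18, RACK1 of -0.13, RPL22L1 of 0.39, RPL26L1 of 0.20 and RPL36AL of -0.15, none of them called. The calls of EIF3F and RRN3 were lost in 15 and 10 of 21 alternative settings, those of EEF1D and TPT1 in 4 each and that of EIF3A in 2.

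Of 17 genes of the mTOR and S6 kinase axis and of growth control, 4 were higher and 5 lower, near the 24.3% and 25.5% among all genes. The median of -0.19 turned to 0.074 with the length and GC trend removed and to 0.024 with quantile normalization. EIF4EBP2, a repressor of cap-dependent initiation, was higher with a log2 fold change of 0.64 (adjusted p = 6.2e-05), as were RICTOR with 0.64 (0.00018), a subunit of the mTOR complex mTORC2, and MAX with 0.42 (0.0023), the partner of MYC. RPS6KB1, an S6 kinase, fell by 0.46 (adjusted p = 0.0024), LARP4, which binds poly(A) tails of mRNAs, by 0.44 (0.0016) and MTOR by 0.43 (0.020). EIF4EBP1, a repressor of the same family as EIF4EBP2 and named after its values were seen, fell by 0.36 (adjusted p = 0.0090). The call of MTOR was lost in 6 of 21 alternative settings, those of MAX and EIF4EBP1 in 3 each and those of LARP4 and RPS6KB1 in 1 each. These are mRNA levels, and translation and phosphorylation were not measured here.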

How the data were processed

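Libraries were made with the NEBNext Ultra kit. Per the labels and the methods, the authors checked reads with FastQC (version 0.11.5), trimmed them with cutadapt (version 1.12), aligned them to hg38 with STAR (version 2.6.90c) and counted them per gene with featureCounts (version 1.5.1). The methods name a RefSeq annotation, whereas the table carries Ensembl identifiers. How multiply mapped and overlapping reads were counted, and with what strand setting, is not given in the sources used here. The deposited values are a signal, namely read counts that the authors normalized per library. In all 6 libraries 100% of values were whole reads within 0.1 after division by the smallest step. In KYSE450 library 2 and KEAP1null-KYSE450 library 3 that step was within about 1% of 1, where whole reads are hardest to tell from unscaled values, so edgeR (version 4.0.16) and DESeq2 (version 1.42.0) first used the other 4, and called 5410 and 5347 genes at an adjusted p under 0.05. On all 6, added after the data were seen, they called 8239 and 8470. Columns name the line but no replicate, and 0 columns were left unused.

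The main test was the two-sided moderated test of limma (lmFit, then eBayes with trend; version 3.58.1 in R 4.3.3) on log2 of the value plus 1, for genes whose mean reached 10, with Benjamini-Hochberg adjustment over all of them. Fold changes are on that scale, KEAP1null-KYSE450 over KYSE450. The tests were tried on simulated data. Floors of 3 reads cover counting error only. Positions and lengths came from gencode v44, and the main transcript is the one marked there as canonical.

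Members and gene lists were chosen with earlier results of these data known. The result of 1 gene in these lists is not reported here. Named genes were members past both thresholds, the 5 largest called changes in each direction per subunit, 4 tissue-restricted or inducible paralogs, the highest and lowest core member per kilobase, 9 members with known roles, members whose 40 neighbours had a median beyond 0.4, and up to 3 called genes in each direction per list. Alternatives were a pseudocount of 0.1 or of 10, a filter at a mean of 100 or none, scaling to the same total, to the total of other nuclear genes, by quantiles or to the members' own level, eBayes without trend, removal of a length and GC trend, each library left out, library 1 of both lines left out, edgeR and DESeq2. Scaling to the members' own level and leaving out library 1 of both lines were added after the data were seen.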

Additional observations from a re-analysis of the deposited data

How the results depend on the processing

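Most members had means above 1000 normalized counts, and each line had 3 libraries. Against 12 members higher (24.3% of all genes), 6 were higher without the filter (14.4%), 19 with scaling to the total of other nuclear genes (28.5%), 5 without the trend (22.0%), 3 with scaling to the members' own level (13.6%), 34 without library 1 of both lines (25.7%), and on 4 libraries 3 with edgeR (17.5%) and 4 with DESeq2 (15.7%). For the first 3 the cause was not tested. On all 6 libraries edgeR gave 15 and DESeq2 17. Against 3 lower (25.5%), 16 were lower with the length and GC trend removed (28.0%), 6 with scaling to the members' own level (21.7%) and 0 with edgeR on 4 libraries (14.9%), by which 2 were lower at an unadjusted p under 0.05, while DESeq2 gave 3 on 4 libraries and 4 on all 6, and edgeR 3 on all 6. Past both thresholds, quantile normalization gave 1 (16.0% of all genes) against 0 (18.2%). Leaving out each library gave 4 to 26 higher, where 18.9% to 24.1% of all genes were, and 3 to 4 lower, where 19.6% to 25.4% were. It gave 0 to 1 past both (15.9% to 18.4%). The share of members that were higher exceeded that of all genes without library 1 of KEAP1null-KYSE450 (32.9% against 22.6%). It did so too without library 3 of KYSE450 (24.1% against 23.1%), and lay below it in the other fits that left out 1 library. Without library 1 of both lines it also exceeded that of all genes (43.0% against 25.7%). Large-subunit medians were 0.073 to 0.25, small-subunit medians 0.060 to 0.27, and the ratio of the members' share of counts 1.07 to 1.23. Under scaling to the members' own level, leaving out each library gave 2 to 8 higher (8.32% to 15.4% of all genes). It gave 3 to 7 lower (9.82% to 29.0%) and 0 to 1 past both (12.9% to 18.2%). The large-subunit median turned to -0.034 with the length and GC trend removed and to -0.011 with scaling to the members' own level, where a median near 0 follows from the scaling, and the small-subunit median to -0.041 with the trend removed. Of the listed genes 47 were called, 22 with edgeR on 4 libraries and 46 on all 6. With the length of all merged exons the levels per kilobase were 54407 for RPL12, 84916 for RPS18, 31.1 for RPL36A and 45.7 for RPS10, and RPL12 and RPS18 were no longer the highest.

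Among the named genes, sign changes were found in those not called and in RPL34 and RPS25. With the length and GC trend removed the log2 fold change was -0.037 for FAU, -0.17 for RPL11, -0.11 for RPL12, -0.14 for RPL26L1, -0.035 for RPL34, -0.057 for RPL39L, -0.034 for RPL5, -0.0032 for RPLP0, 0.14 for RPS19, -0.063 for RPS25, -0.15 for RPS27A, -0.13 for RPSA and 0.0060 for TSR2. With quantile normalization it was -0.095 for RPL11, -0.092 for RPL12, 0.042 for RPL36AL, -0.052 for RPLP0, 0.17 for RPS19, -0.029 for RPS6 and -0.098 for RPSA. With scaling to the members' own level it was -0.13 for RPL11, -0.028 for RPL12, -0.075 for RPLP0 and -0.15 for RPSA. With scaling to the same total it was 0.029 for RPS19, and to the total of other nuclear genes 0.084 for RPS19 and 0.018 for RPS18. On the reads of all 6 libraries it was 0.025 with edgeR and 0.0083 with DESeq2 for RPS19. Without library 1 of both lines it was 0.019 for RPS19 and -0.021 for RPSA. Leaving out 1 library gave -0.020 to 0.11 for RPL11, -0.39 to 0.13 for RPL36A, -0.25 to 0.087 for RPS18, -0.073 to 0.084 for RPS19, -0.12 to 0.12 for RPSA and -0.21 to 0.017 for TSR2. No paired analysis was possible because the columns carry no replicate numbers.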
